A study of Mus musculus with 26 samples.

Results

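The genes described here are 10 genes known for the trophectoderm, the outer epithelium of the blastocyst. They are the transcription regulators Cdx2, Eomes, Gata3, Gata2, Tfap2c, Tfap2a and Id2 and the keratins Krt8, Krt18 and Krt19, chosen by symbol from a table of 55254 gene symbols, and all 10 were found. They were read in 26 libraries, each made from the inner cell mass (ICM) of a single CD-1 mouse embryo with the FLASH-seq protocol, which reads whole transcripts from very little RNA. E2.75 morulae from natural matings were cultured for 24 hours. The conditions were the PI3K inhibitor LY294002 at 10 µM plus FGF4 with heparin at 1 µg/ml (LY+FGF4, 6 ICMs), FGF4 with heparin alone (FGF4, 8 ICMs), LY294002 alone (LY, 7 ICMs) and the DMSO vehicle (DMSO, 5 ICMs). The zona pellucida was taken off and the labels name immunosurgery, which lyses outer cells with antibody and complement so that the ICM is left. Embryos of 5 litters were mixed before they were shared out, so the litter and sex of an ICM are unknown, and no count of cells per ICM was given.

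The trophectoderm forms when outer cells of the morula become polarised, which keeps Hippo signalling low there and lets the coactivator YAP enter the nucleus and work with the factor TEAD4. Cdx2 and Gata3 are switched on downstream of TEAD4, and Cdx2 helps to silence Pou5f1 and Nanog in outer cells. Krt8 pairs with Krt18 or Krt19 to build the first keratin filaments of the embryo. Krt8 and Krt18 are also known from extraembryonic endoderm, where they were first named Endo A and Endo B. FGF4 with heparin is also what sustains Cdx2 and Eomes in trophoblast stem cells in culture. Since a library is a whole ICM, fewer cells of a type and less RNA per cell cannot be told apart.

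The values are TPM (each library adds up to 1000000), so each is a share and holds no read number. The number of genes at 1 TPM or more ranged from 7486 to 9534 in LY+FGF4, from 8315 to 10871 in FGF4, from 9860 to 10215 in LY and from 10212 to 11367 in DMSO. Every LY+FGF4 library thus lay below every LY and every DMSO library in this number. Between those conditions, gene number and treatment cannot be told apart. The ICM marker Pou5f1 was present in all 26 libraries. Its median was 850 TPM in LY+FGF4 (538 to 1034), 1089 TPM in FGF4 (949.8 to 1495), 1222 TPM in LY (936 to 1461) and 1604 TPM in DMSO (1349.8 to 1698). Groups were compared with limma on log2(TPM + 1), with p-values adjusted by Benjamini-Hochberg over 12034 genes that reached 1 TPM in at least 5 libraries, and a gene is called at an adjusted p under 0.05. Of the 10 genes, 8 were tested, while Gata2 and Id2 did not pass that filter. All 26 libraries entered the same fit, so each SE rests on a spread per gene that all conditions share.

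In LY+FGF4 against LY, 1 of the 8 tested genes was called, Tfap2c, which fell, beside 6.3% of all tested genes called in either direction and 4.5% called lower. In LY+FGF4 against DMSO the count was again 1 of 8, and again Tfap2c lower, beside 9.5% of all tested genes in either direction and 7.3% lower. In FGF4 against DMSO limma called 0 of 8 beside 2.44% of all genes. In LY against DMSO it called 0 of 8 beside 0.374%. In LY+FGF4 against FGF4 it called 0 of 8 beside 3.55%, and for the interaction, the LY effect with FGF4 minus that without, 0 of 8 beside 0.0499%. At an unadjusted limma p under 0.05 there were 3, 1, 0 and 0 of the 8, in the same order. Of all 12034 tested genes, 1865, 1034, 2258 and 726 were under it. The median log2 fold change of the 8 genes was -0.79 in LY+FGF4 against DMSO, where that of all tested genes was -0.37, and -0.68 and -0.24 in LY+FGF4 against LY. Comparisons that name the same condition share its libraries, so they are not independent of each other.

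**Figure D1:**
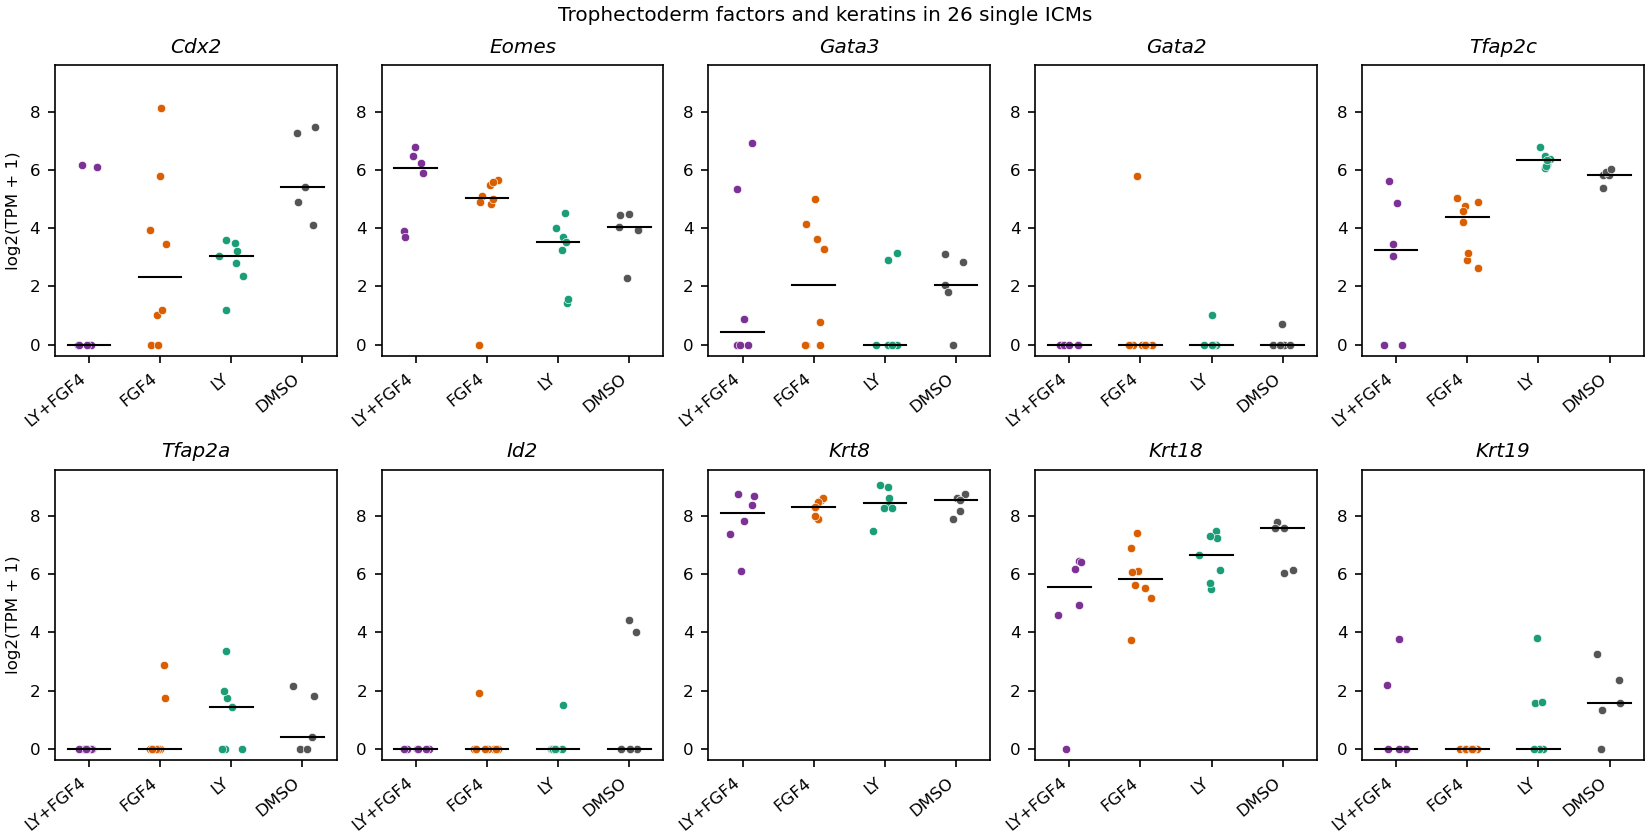
Each point is 1 library, the vertical axis is log2(TPM + 1) and the bar is the median of the group. Krt8 was high in all 26 libraries, Tfap2c was lower in the conditions with FGF4, and Cdx2 and Gata3 varied between ICMs of 1 condition.

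Promoter sequence is shown for Krt8 and Krt18, the pair of neighbouring keratin genes that varied together, and for Cdx2, which was high in some ICMs and listed at 0 in others of the same condition. They come from RefSeq on GRCm38.p6, which held 8 of the 10 genes (Krt19 and Tfap2c were not matched), and run 5′ to 3′ towards the gene. Capitals mark matches on either strand to 3 motifs. These were GGAATG, bound by TEAD factors, GCCNNNGGC, bound by AP-2 factors such as the product of Tfap2c, and AGATAA, bound by GATA factors.
Cdx2, chr5:147307250-147307499, minus strand: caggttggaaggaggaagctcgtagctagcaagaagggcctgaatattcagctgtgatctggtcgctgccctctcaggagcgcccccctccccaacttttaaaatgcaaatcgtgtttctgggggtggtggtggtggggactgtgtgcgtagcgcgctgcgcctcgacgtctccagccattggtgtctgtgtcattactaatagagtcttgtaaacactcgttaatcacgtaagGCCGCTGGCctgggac
Krt8, chr15:102004483-102004592, minus strand: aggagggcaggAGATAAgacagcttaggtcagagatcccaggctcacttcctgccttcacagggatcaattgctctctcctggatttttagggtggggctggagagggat
Krt18, chr15:102027966-102028179, plus strand: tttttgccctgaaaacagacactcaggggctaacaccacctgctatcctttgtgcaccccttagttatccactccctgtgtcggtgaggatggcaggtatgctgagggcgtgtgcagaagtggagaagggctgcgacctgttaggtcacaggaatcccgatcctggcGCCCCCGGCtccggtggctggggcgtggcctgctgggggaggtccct
The Cdx2 and Krt18 stretches each hold 1 AP-2 match and the Krt8 stretch 1 GATA match. The last 21 bases of the Cdx2 stretch lie inside the GENCODE M21 gene, which starts upstream of the RefSeq start, and the Cdx2 match is among them. Over 250 bases upstream of 32851 RefSeq starts, 13.7% hold the AP-2 letters, 12.6% the TEAD letters and 9.99% the GATA letters. The Krt8 and Krt18 stretches are shorter, since they were cut at the annotated gene. Over stretches of the same length and place, 4.93% hold the GATA letters (110 bases, as Krt8) and 11.5% the AP-2 letters (214 bases, as Krt18). The motifs do not overlap in these stretches, and a match is a description of letters, not a bound site.

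Cdx2, the homeobox factor that trophectoderm needs, was measured on chromosome 5 (147300805 to 147307270, GENCODE M21 on GRCm38, protein-coding). In DMSO its level was 178, 153, 29.1, 16.2 and 41.6 TPM in replicates 3, 6, 7, 8 and 9. In LY it ranged from 1.26 to 11.2 TPM with a median of 7.26, so every LY library lay below every DMSO library, as did those of 1.54% of all tested genes. With FGF4 it ranged from listed at 0 to 282 TPM (median 5.59). In LY+FGF4 it was listed at 0 in replicates 2, 6, 7 and 8 and stood at 71.7 and 67.4 TPM in replicates 3 and 5. The FGF4 and LY+FGF4 groups therefore overlapped DMSO, and each held libraries at DMSO level beside libraries with none.

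The log2 fold change of Cdx2 was -3.02 (SE 1.28, adjusted p = 0.455, limma) in LY against DMSO, where the mean was 6.88 ± 3.43 TPM in LY and 83.5 ± 75.7 TPM in DMSO (SD, n = 7 and 5). It was -3.79 (SE 1.32, adjusted p = 0.066) in LY+FGF4 against DMSO and -2.89 (SE 1.24, adjusted p = 0.239) in FGF4 against DMSO. None of these passed. The LY difference passed in 2 of 24 alternatives (adjusted p from 0.0211 to 0.762), the lowest when only LY and DMSO were fitted. The LY+FGF4 difference passed in 5 of 23 (adjusted p from 0.0248 to 0.562), among them without LY+FGF4 replicate 3 (0.0248) or replicate 5 (0.0257), the libraries of that condition that carried Cdx2.

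Gata3, a zinc finger factor that acts beside Cdx2 in outer cells, stood at 6.21, 7.6, 0, 3.17 and 2.47 TPM in DMSO replicates 3, 6, 7, 8 and 9. It was at 1 TPM or more in 2 of 6 LY+FGF4, 4 of 8 FGF4, 2 of 7 LY and 4 of 5 DMSO libraries. The highest levels were 122 and 39.9 TPM, in LY+FGF4 replicates 5 and 3, the same 2 libraries of that condition that carried Cdx2. Of the 12 libraries with Gata3 at 1 TPM or more, 11 also had Cdx2 at that level, and 9 had Cdx2 but not Gata3. All groups overlapped, and no comparison was called (adjusted p from 0.515 to 0.980). The log2 fold change was 0.23 in LY+FGF4 against DMSO, and its sign turned in other settings. Gata3 overlaps 3 annotated genes, and 2 of them lie on the opposite strand, but all 3 were listed at 0 in every library.

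Gata2, a related zinc finger factor of trophoblast, was listed at 0 in 23 of 26 libraries. It stood at 54.4 TPM in FGF4 replicate 8, at 1.03 TPM in LY replicate 5 and at 0.62 TPM in DMSO replicate 6. Cdx2 in that FGF4 library was 1.27 TPM, so high Gata2 did not go with high Cdx2 there.

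Id2, an inhibitor of basic helix-loop-helix factors that marks outer cells early, was listed at 0 in 22 of 26 libraries. It stood at 15.1 and 20.3 TPM in DMSO replicates 3 and 6, the 2 DMSO libraries with the most Cdx2. The other libraries with Id2 were FGF4 replicate 1, at 2.74 TPM, and LY replicate 6, at 1.86 TPM. Id2 was listed at 0 in FGF4 replicate 6 and in LY+FGF4 replicates 3 and 5, where Cdx2 stood at 282, 71.7 and 67.4 TPM. At 1 TPM or more, 4 libraries had both genes and 16 had Cdx2 but not Id2. No test was made of Gata2 or Id2.

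Tfap2a, an AP-2 factor related to Tfap2c, had no value above 0 in the 6 LY+FGF4 libraries and was at 0 in 6 of 8 FGF4, 3 of 7 LY and 2 of 5 DMSO libraries. Its highest levels were 9.16 TPM in LY replicate 5 and 6.43 TPM in FGF4 replicate 6. The groups overlapped and no comparison was called, and against LY+FGF4 no fold is given. All 8 libraries with Tfap2a at 1 TPM or more also had Cdx2 at 1 TPM or more, against 20 of 26 libraries with Cdx2 in all.

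Tfap2c encodes AP-2 gamma, which in the mouse embryo is known to support polarity, junctions and Cdx2 expression in outer cells, and which is also found in germ cells. It lies on chromosome 2 (172549593 to 172558622, protein-coding). In LY+FGF4 it was listed at 0 in replicates 2 and 6 and stood at 28.4, 48.6, 9.89 and 7.30 TPM in replicates 3, 5, 7 and 8. With FGF4 it ranged from 5.14 to 31.9 TPM (median 20.2), with LY from 66.3 to 110.1 TPM (median 79.7), and in DMSO it was 55.9, 55.9, 59.7, 40.2 and 64.7 TPM. The order was thus LY, then DMSO, then both conditions with FGF4. LY lay wholly above DMSO, FGF4 wholly below DMSO, and LY+FGF4 wholly below LY (as in 1.21% of all tested genes), whereas LY+FGF4 overlapped FGF4 and DMSO.

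Tfap2c fell in LY+FGF4 against LY, to 15.7 ± 19.2 TPM in LY+FGF4 against 81.0 ± 14.98 TPM in LY (SD, n = 6 and 7; log2 fold change -3.50, SE 0.68, limma adjusted p = 0.00252). That call was made in 25 of 25 alternatives (adjusted p from 0.000313 to 0.0439). It also fell in LY+FGF4 against DMSO, where DMSO averaged 55.3 ± 9.17 TPM (log2 fold change -2.96, SE 0.74, adjusted p = 0.0114). This second call was made in 20 of 23 alternatives. It was lost when each library's gene number entered as a covariate (adjusted p = 0.19), when only those groups were fitted (adjusted p = 0.0815) and with the replicate block. In both comparisons every LY+FGF4 library listed fewer genes than every library of the other condition. The part of gene number in the Tfap2c fall therefore cannot be told apart from that of the treatment.

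In FGF4 against DMSO, Tfap2c averaged 18.3 ± 10.7 TPM in FGF4 and 55.3 ± 9.17 TPM in DMSO, with no overlap of the groups, as in 1.63% of all tested genes in that direction. The log2 fold change was -1.78 (SE 0.70, adjusted p = 0.183) and passed in 4 of 25 alternatives. In LY against DMSO the log2 fold change was 0.54 (SE 0.71, adjusted p = 0.944), though the groups did not overlap, as in 0.806% of all tested genes in that direction. That SE rests on a spread shared by all conditions, among them LY+FGF4, where Tfap2c ran from 0 to 48.6 TPM. It is thus not the spread of LY and DMSO alone. The LY difference passed in 0 of 24 alternatives (limma adjusted p of 0.191 or more). The interaction was -1.73 (SE 0.97, adjusted p = 0.865), so the FGF4 difference is not shown to depend on LY.

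Eomes, a T-box factor of trophoblast that is also known in visceral endoderm, ran in another order (chromosome 9, 118478212 to 118486132, protein-coding). In LY+FGF4 it ranged from 11.9 to 110.1 TPM (median 66.7), with FGF4 from listed at 0 to 49.9 TPM (median 32.2), with LY from 1.70 to 22.2 TPM (median 10.4), and in DMSO it stood at 15.7, 14.2, 3.89, 21.4 and 21.1 TPM. Only FGF4 replicate 3 was listed at 0, and it was at 1 TPM or more in 25 of 26 libraries. Each group overlapped the others, but FGF4 overlapped LY and DMSO only through that replicate. The other 7 FGF4 libraries, at 27.6 TPM or more, lay above every LY and every DMSO library.

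The log2 fold change of Eomes was 2.36 (SE 0.76, adjusted p = 0.0607) in LY+FGF4 against LY, with means of 59.6 ± 39.9 TPM in LY+FGF4 and 10.2 ± 7.23 TPM in LY (SD, n = 6 and 7). It did not pass, and it passed in 5 of 25 alternatives (adjusted p from 0.00913 to 0.146), among them without LY+FGF4 replicate 5 (adjusted p = 0.0413) or replicate 8 (adjusted p = 0.0345), the 2 libraries of that condition with the least Eomes. The other log2 fold changes were 1.66 in LY+FGF4 against DMSO (adjusted p = 0.214), 0.73 in FGF4 against DMSO (adjusted p = 0.718) and -0.70 in LY against DMSO (adjusted p = 0.923). The FGF4 against DMSO value ranged from 0.34 to 1.38 with 1 library left out, and it passed in 0 of 25 alternatives. In LY+FGF4 replicates 2, 6 and 7 Cdx2 was listed at 0 while Eomes stood at 110.1, 74.9 and 88.1 TPM, so the 2 factors did not mark the same libraries. The primitive endoderm list, like Eomes, had higher medians in both conditions with FGF4 than in LY or DMSO, but the order of those 2 conditions was not that of Eomes. Its summed level had a median of 1674 TPM in LY+FGF4 and 2513 TPM with FGF4, where Eomes had 66.7 and 32.2 TPM. The sum ranged from 844 to 2800 TPM in LY+FGF4, from 1434 to 2883 TPM with FGF4, from 209 to 471 TPM with LY and from 448 to 966 TPM in DMSO. By library, the LY+FGF4 sum was 2170, 2322 and 2800 TPM in replicates 2, 6 and 7, where Eomes was highest. It was 920 and 844 TPM in replicates 5 and 8, where Eomes was lowest. In FGF4 replicate 3, with Eomes listed at 0, the sum was 1709 TPM. In FGF4 replicate 6, with Eomes at 30.8 TPM, it was lower still, 1434 TPM. The part of this lineage in the Eomes values was not tested.

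**Figure D2:**
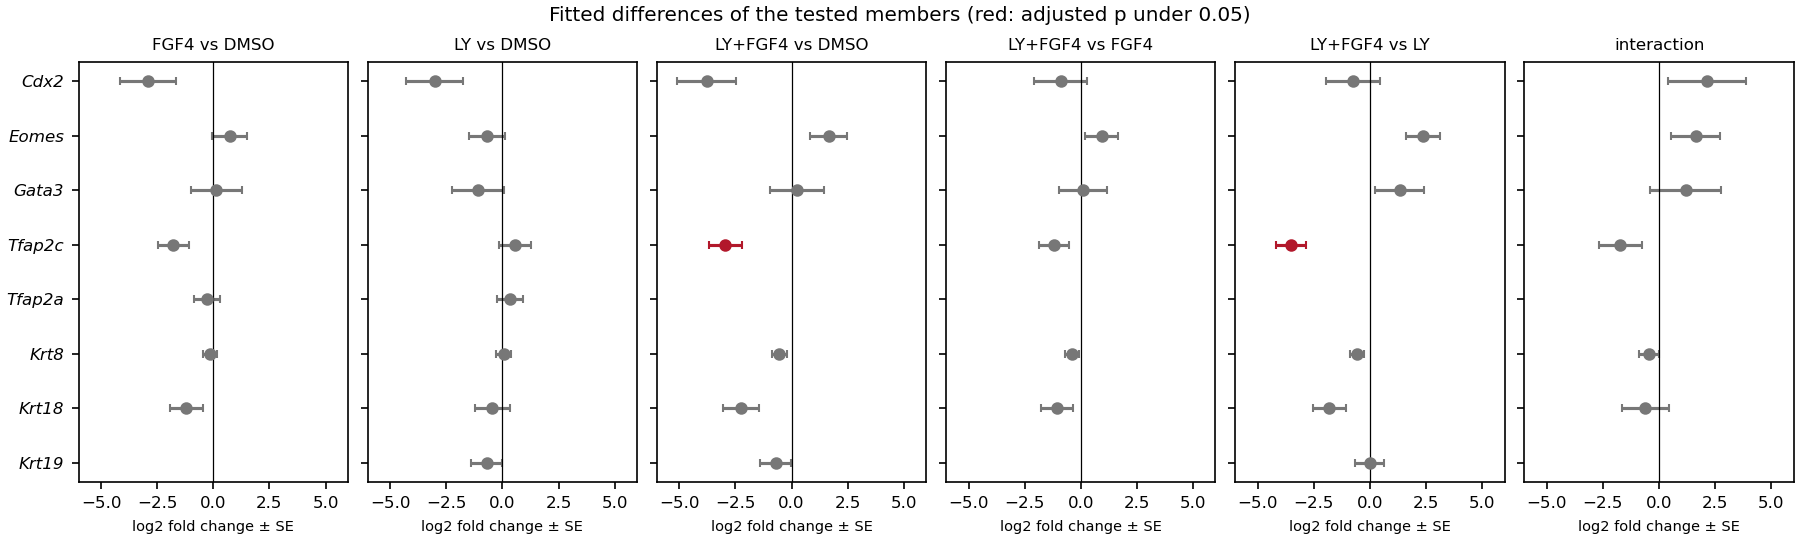
Points are limma log2 fold changes on the log2(TPM + 1) scale, bars are 1 SE, and each panel is a comparison named with its first condition minus its second. Tfap2c in LY+FGF4 against DMSO (-2.96) and against LY (-3.50) are the 2 values in red, and no point is drawn where a condition was listed at 0 throughout or for Tfap2a and Krt19 in the interaction.

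Krt8, the type II keratin of simple epithelia, was the most abundant of the 10 genes and was present in every library (chromosome 15, 101996698 to 102004482, protein-coding). It ranged from 67.7 to 432 TPM in LY+FGF4 (median 279), from 235 to 396 TPM with FGF4 (median 318), from 176 to 531 TPM with LY (median 351), and stood at 390.4, 430.03, 379, 285 and 239 TPM in DMSO. All groups overlapped. The log2 fold change was 0.05 (SE 0.33, adjusted p = 0.995) in LY against DMSO, -0.14 (SE 0.32, adjusted p = 0.891) in FGF4 against DMSO and -0.54 (SE 0.34, adjusted p = 0.339) in LY+FGF4 against DMSO. Not passing the test does not show that Krt8 was equal. Krt8-ps, by its name a pseudogene of Krt8, was at 1 TPM or more in 2 LY+FGF4 libraries, at most 35.9 TPM, and in 1 DMSO library, and how reads were shared between them is not known.

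Krt18, a type I partner of Krt8, is its neighbour on chromosome 15 (102028180 to 102032027, protein-coding). It ranged from listed at 0 to 86.3 TPM in LY+FGF4 (median 50.5), from 12.5 to 171 TPM with FGF4 (median 57.3), from 44.3 to 179 TPM with LY (median 101), and stood at 191, 219.6, 69.1, 191 and 64.4 TPM in DMSO. The order of the medians was DMSO, LY, FGF4 and LY+FGF4, with overlap between all neighbours. The log2 fold change was -2.26 (SE 0.80, adjusted p = 0.0706) in LY+FGF4 against DMSO, and it passed without LY+FGF4 replicate 6 (adjusted p = 0.0445) or replicate 8 (adjusted p = 0.0457). It turned to 0.21 with each library's gene number as a covariate. It was -1.81 (SE 0.73, adjusted p = 0.137) in LY+FGF4 against LY and -1.20 (SE 0.75, adjusted p = 0.468) in FGF4 against DMSO.

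Both keratins were present in 25 of 26 libraries, and LY+FGF4 replicate 2 had Krt8 at 67.7 TPM and Krt18 listed at 0. That library also listed the fewest genes, 7486. The ratio of Krt8 to Krt18 TPM, a ratio per transcript length, ranged from 4.64 to 9.76 in 5 LY+FGF4 libraries (median 5.07), from 2.10 to 18.8 with FGF4 (median 5.27), from 1.13 to 7.92 with LY (median 4.45) and from 1.49 to 5.48 in DMSO (median 2.04). Krt8 was thus above Krt18 in each of these libraries. The summed keratin level was 333 TPM at the median in LY+FGF4, 368 with FGF4, 397 with LY and 485 in DMSO.

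Krt19, another type I keratin, was low (chromosome 11, 100140810 to 100148665). It was listed at 0 in all 8 FGF4 libraries, in 4 of 6 LY+FGF4, 4 of 7 LY and 1 of 5 DMSO libraries. Its highest levels were 12.9 TPM in LY replicate 8, 12.5 TPM in LY+FGF4 replicate 3 and 8.61 TPM in DMSO replicate 8. In LY+FGF4 against DMSO the log2 fold change was -0.71 (SE 0.71, adjusted p = 0.563). Among 51 other keratin genes, 44 were listed at 0 in all libraries and 3 were above 0 in at least 5 libraries. These were Krt7, with a mean of 5.72 TPM and up to 55.7 TPM, Krt10, with a mean of 5.12 TPM, and Krt23, with a mean of 2.14 TPM. Krt80 and Krt87 followed, each with a mean under 1 TPM (0.555 and 0.450 TPM).

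Other genes of the outer epithelium were set beside these values. Of 15 such markers, 14 were tested. Limma called 3 lower in FGF4 against DMSO, 2 lower in LY+FGF4 against DMSO and 3 lower in LY+FGF4 against LY. It called 1 higher in LY+FGF4 against FGF4 and 0 in LY against DMSO. In the latter, 1 was at an unadjusted p under 0.05, as were 1034 of all 12034 tested genes. Over all tested genes, 2.44%, 9.5%, 6.3%, 3.55% and 0.374% were called in either direction, in the same order. The share called lower was 7.3% in LY+FGF4 against DMSO and 4.5% in LY+FGF4 against LY. The water channel gene Aqp3 fell in FGF4 against DMSO (log2 fold change -3.63, adjusted p = 0.0156) and in LY+FGF4 against DMSO (-3.84, adjusted p = 0.00697). The tight junction gene Cldn4 fell in FGF4 against DMSO (-2.25, adjusted p = 0.0288) and in LY+FGF4 against LY (-1.80, adjusted p = 0.0493). Sfn, which encodes 14-3-3 sigma, fell in FGF4 against DMSO (-1.79, adjusted p = 0.00205) and in LY+FGF4 against LY (-1.06, adjusted p = 0.0356), and rose in LY+FGF4 against FGF4 (1.41, adjusted p = 0.00779). Hand1, a trophoblast factor, had no value above 0 in the 6 LY+FGF4 libraries, and was called lower there than in DMSO (adjusted p = 0.00493) and in LY (adjusted p = 0.0289).

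These marker calls differed in how far they rested on 1 library. The Sfn call in FGF4 against DMSO was made in 25 of 25 alternatives and the Aqp3 call in LY+FGF4 against DMSO in 21 of 23. The Aqp3 call in FGF4 against DMSO was made in 21 of 25 and was lost without DMSO replicate 6 (adjusted p = 0.0605) or 7 (0.0606). The Cldn4 call in FGF4 against DMSO was made in 15 of 25 (adjusted p from 0.00164 to 0.167), and leaving out DMSO replicate 3, 6, 7 or 8 or FGF4 replicate 3, 4 or 5 ended it. The Cldn4 call in LY+FGF4 against LY was made in 6 of 25 (adjusted p from 0.00606 to 0.284), and leaving out any LY library or LY+FGF4 replicate 2, 6, 7 or 8 ended it. The Sfn call in LY+FGF4 against LY was made in 12 of 25 and ended without LY+FGF4 replicate 2, 6, 7 or 8 or LY replicate 2, 3, 4, 6 or 8. The Hand1 call in that comparison was made in 14 of 25 and ended without LY replicate 2, 4, 5, 6 or 8.

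The summed level of the 15 markers ranged from 730 to 2350 TPM in LY+FGF4, from 537 to 1658 TPM with FGF4, from 2103 to 2794 TPM with LY and from 1564 to 2582 TPM in DMSO. Between 6 and 11 of the 15 were above 0 in LY+FGF4 libraries, 7 to 13 with FGF4, 10 to 13 with LY and 12 to 15 in DMSO. Of the 5 defining markers, Elf5 was listed at 0 in 24 of 26 libraries, Hand1 in 13 and Aqp3 in 3. Krt7 was listed at 0 in 4 of 6 LY+FGF4 and 4 of 8 FGF4 libraries, while Cldn4 was above 0 in every library, at 14.4 TPM or more.

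**Figure D3:**
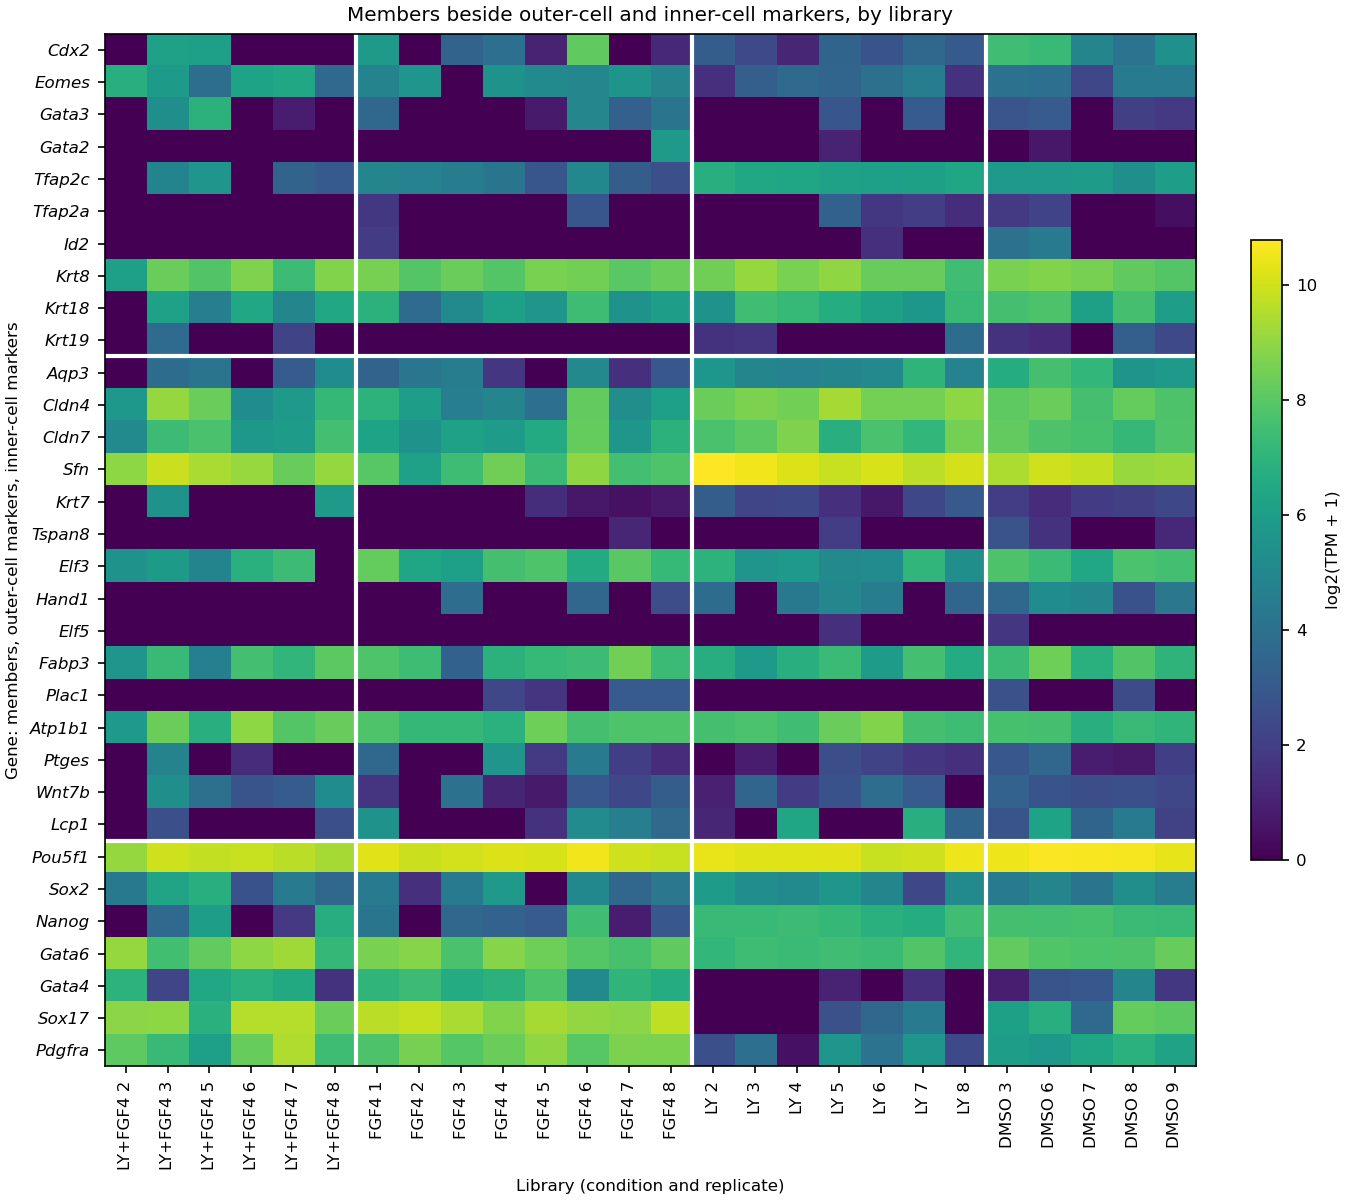
Columns are the 26 libraries by condition and replicate, rows are the 10 genes, 15 outer-cell markers and 7 markers of epiblast or primitive endoderm, and colour is log2(TPM + 1). LY+FGF4 replicates 2 and 6 list Cdx2, Gata3, Tfap2c and Aqp3 at 0 beside Krt8 at 67.7 and 410.4 TPM.

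Some libraries bear on whether outer cells were left or ICM cells carried these transcripts, and they differ by gene. In LY+FGF4 replicates 2 and 6, 6 of the 7 factors (all except Eomes) were listed at 0, as were Aqp3, Krt7, Hand1 and Elf5. Of these, Gata2, Tfap2a, Id2, Hand1 and Elf5 were listed at 0 in all 6 LY+FGF4 libraries, and Cdx2 and Krt7 in 4 of 6. Gata3 was listed at 0 in 3 of 6, and Tfap2c and Aqp3 only in replicates 2 and 6. Replicate 2 had 7486 genes at 1 TPM or more, the fewest of all libraries, and replicate 6 had 9156. Krt8 stood at 67.7 and 410.4 TPM in replicates 2 and 6, and the second of these values lies within the DMSO range. Pou5f1 in these libraries was 538 and 942 TPM. Other genes of the outer-cell list were present in both libraries, with 6 of 15 above 0 in replicate 2 and 8 of 15 in replicate 6. Sfn stood at 494 and 563 TPM in replicates 2 and 6, Atp1b1 at 56.7 and 498 TPM, Fabp3 at 47.7 and 189 TPM, Elf3 at 43.96 and 114 TPM and Cldn4 at 53.3 and 36.9 TPM. Krt8 was thus measured where some outer-cell genes were listed at 0 and others were not.

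In LY, where Cdx2 lay below its DMSO range, the 5 defining markers summed to between 400 and 700.2 TPM, against 297 to 560 TPM in DMSO. Cldn4 alone made up 73.2 to 92.5% of that sum in LY and 52.7 to 84.2% in DMSO. The other 4 markers summed to between 32.6 and 134 TPM in LY (median 56.0) and to between 55.7 and 229.6 TPM in DMSO (median 118). The markers thus did not move as 1 group, and the sum followed Cldn4. Aqp3 averaged 46.1 ± 37.8 TPM with LY and 107 ± 60.0 TPM in DMSO (SD, n = 7 and 5; adjusted p = 0.792), and Hand1 13.8 ± 11.5 TPM with LY and 20.4 ± 12.9 TPM in DMSO (adjusted p = 0.854).

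With FGF4 the 5 markers summed to between 16.1 and 336 TPM, and with LY+FGF4 to between 36.9 and 601 TPM. FGF4 replicate 6, with the most Cdx2 of all libraries at 282 TPM, also had the highest marker sum of its condition, at 336 TPM. It had the most Nanog and Klf2 of its condition too, 176 and 41.2 TPM, where the medians were 8.49 and 1.35 TPM. Its primitive endoderm sum, 1434 TPM, was the lowest with FGF4 alone. LY+FGF4 replicates 3 and 5, the libraries of that condition with Cdx2, had its 2 highest sums, 601 and 332 TPM. LY+FGF4 replicate 8 had the next sum, 235 TPM, with Krt7 at 55.7 TPM and Aqp3 at 37.2 TPM, and Cdx2 was listed at 0 there. These sums too were mostly Cldn4, and without it that replicate had the highest sum of its condition, 92.8 TPM, above 58.9 TPM in replicate 3 and 16.7 TPM in replicate 5. In LY+FGF4, Tfap2c was highest in replicates 3 and 5. Replicates 3, 5 and 8 of that condition had Nanog at 11.7, 64.6 and 105 TPM and Klf2 at 30.1, 77.4 and 24.2 TPM. Whether outer cells or ICM cells carried Cdx2 in these libraries was not tested.

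Markers of inner cells differed as well, and not all in the direction of Tfap2c. Of 8 ICM and epiblast markers, 5 were called lower in LY+FGF4 against DMSO (median log2 fold change of the list -2.93, with -0.37 over all tested genes) and 5 in LY+FGF4 against LY (-2.21, with -0.24), and 0 were called higher. They were Pou5f1, Nanog, Klf2, Fgf4 and Tdgf1 in both. Sox2, Prdm14 and Esrrb were not called, with Sox2 at log2 fold changes of 0.06 and -0.20. Over all tested genes, 7.3% were called lower in LY+FGF4 against DMSO and 4.5% in LY+FGF4 against LY. The Tdgf1 call against LY was made in 5 of 25 alternatives, and leaving out any LY library or LY+FGF4 replicate 2, 3, 5 or 6 ended it. Pou5f1, a core pluripotency factor, averaged 809 ± 188 TPM in LY+FGF4, 1214 ± 188 TPM in LY and 1549 ± 148 TPM in DMSO. It fell against DMSO (log2 fold change -0.97, adjusted p = 0.000416, groups without overlap) and against LY (-0.61, adjusted p = 0.0127). It was also called lower in LY+FGF4 against FGF4 (-0.50, adjusted p = 0.0456), in 8 of 26 alternatives, and leaving out LY+FGF4 replicate 2, 7 or 8 or FGF4 replicate 1, 3, 4, 5, 6 or 7 ended that call. Nanog, an epiblast factor, fell in LY+FGF4 against DMSO (-4.44, adjusted p = 0.00783) and against LY (-4.13, adjusted p = 0.00978), as did Klf2 (-4.01, adjusted p = 0.00959, and -4.44, adjusted p = 0.00345). Primitive endoderm markers, also of inner cells, went the other way. Of 9 tested, 2 were called higher in LY+FGF4 against DMSO and 6 in LY+FGF4 against LY, with 0 lower. Over all tested genes, 9.5% and 6.3% were called in either direction. Some outer-cell and some inner-cell markers were thus called in the comparisons in which Tfap2c was called. Their part in the Tfap2c, Cdx2 and keratin values was not tested.

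**Figure D4:**
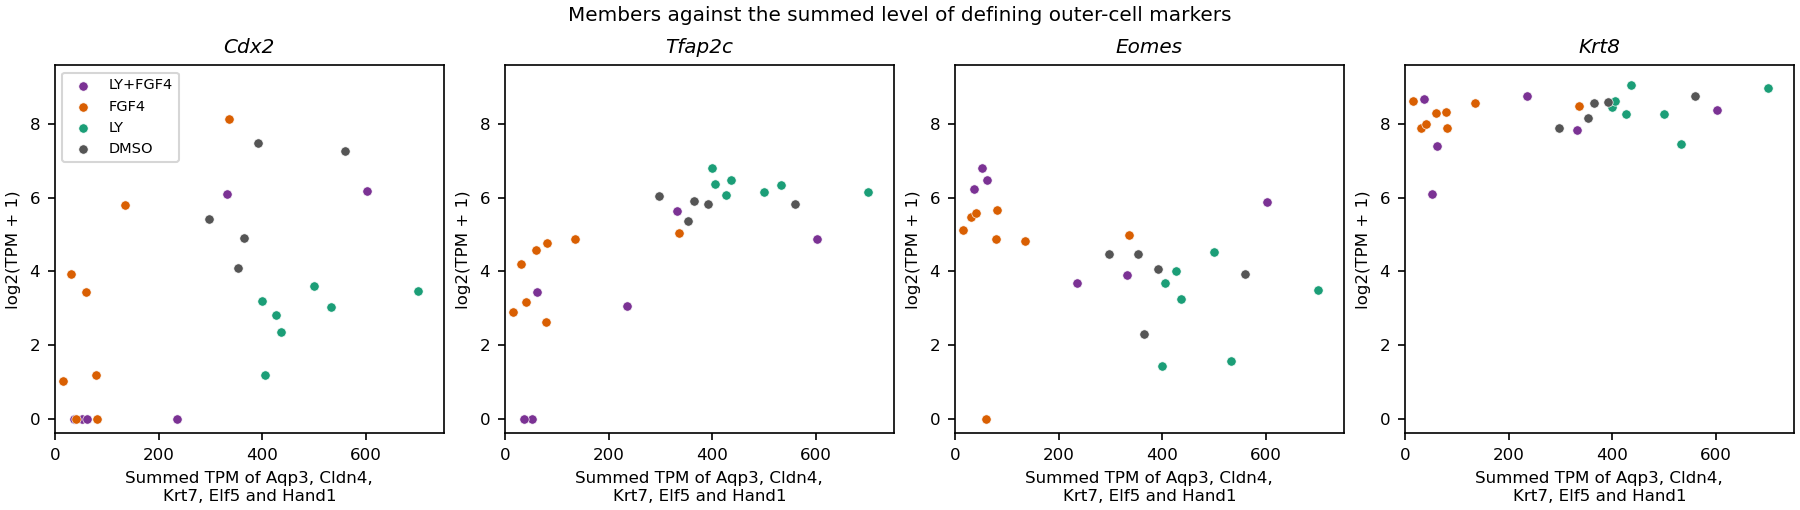
Each point is 1 library, coloured by condition, the horizontal axis is the summed TPM of Aqp3, Cldn4, Krt7, Elf5 and Hand1, and the vertical axis is log2(TPM + 1). The sum is mostly Cldn4, except in FGF4 replicate 3 (39.4%). LY libraries lie at sums of 400 to 700.2 TPM with Cdx2 at 1.26 to 11.2 TPM, and Krt8 stood at 67.7 TPM or more over the whole range of sums.

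Genes of Hippo and Notch signalling and of polarity, which act upstream of Cdx2, were a further list of 15, of which 14 were tested. Limma called 0 of 14 in each of the 5 pairwise comparisons and in the interaction, with 0, 1, 3, 0, 4 and 0 at an unadjusted p under 0.05 in FGF4, LY and LY+FGF4 against DMSO, LY+FGF4 against FGF4, LY+FGF4 against LY and the interaction. Of all 12034 tested genes, 1865, 1034, 2975, 2258, 2600 and 726 were under it, in the same order. Tead4 had a median of 30.9 TPM in LY+FGF4, 25.5 with FGF4, 26.2 with LY and 29.7 in DMSO. Yap1 had medians of 30.5, 45.7, 23.2 and 37.3 TPM in the same order. Amotl2, which encodes an angiomotin that binds YAP, gave the largest log2 fold change of the list in LY+FGF4 against LY, 3.05 (adjusted p = 0.0656), with medians of 79.9 TPM in LY+FGF4 and 11.7 TPM in LY.

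The genes whose levels varied most like those of a member were found by Pearson's r over 26 libraries after the mean of each condition had been taken off, among 8644 genes with a mean of at least 5 TPM. For Cdx2 they were Rnf11 (r = 0.83), Slc35e4 (0.76), Crip2 (0.74), Cldn4 (0.73) and Pramel4 (0.72). For Krt8 they were Dnph1 (0.78), Hexa (0.77), Nudt19 (0.76), Rcl1 (0.76) and Slc38a7 (0.76). Among the tested members Cdx2 gave 0.68 with Gata3, 0.65 with Tfap2c, 0.21 with Krt8 and -0.18 with Eomes, and Krt8 gave 0.74 with Krt18. For Id2 the highest were Lypla2 (0.55), Mturn (0.54), Osbpl6 (0.53), Ostm1 (0.51) and Irf2bp1 (0.50), and they rest on the 4 libraries in which it was above 0. These values describe the libraries, which also differ in the number of genes at 1 TPM or more, and carry no test.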

How the data were processed

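The table that the authors deposited gives TPM by gene symbol. The labels call the data trimmed and de-duplicated, and STAR, RSEM and mm10 stand in the submitters' processing notes. Their versions, the annotation and the strand setting are not given in the sources. TPM keeps no depth, so the depth is unknown and no counting interval is given. limma 3.58.1 in R 4.3.3 was run on log2(TPM + 1) for the 12034 genes that reached 1 TPM in 5 or more of 26 libraries, with 1 mean per group and the trend and robust options, two-sided, with Benjamini-Hochberg adjustment. It was tested on simulated data. Fold changes on this scale understate those of low genes. Replicates are separate embryos. Coordinates are from GENCODE M21, which matched 53255 of 55254 symbols. The members, marker lists and rules for named genes were chosen with earlier results of these data known. They were the members, the lists given, the 5 highest other keratins, and the 5 genes most like Cdx2, Krt8 and Id2, with predicted symbols left out. Krt8-ps was named after its values were seen. Promoters were cut where they ran over 30 bases into an annotated gene. Alternatives were other pseudocounts, filters and scalings, library weights, a covariate, a replicate block, fewer groups and leaving out libraries.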

Additional observations from a re-analysis of the deposited data

Results flagged for a closer look

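A library stood apart from the others of its condition in 12 of the 36 gene and condition groups that had any spread. The rule reads TPM, and many of these groups are at 0 apart from 1 to 3 libraries. The usual rate of about 1 in 20 by chance does not hold for such groups. In them a single library above 0 was flagged even at 0.62 TPM. Cdx2 was 282 TPM in FGF4 replicate 6, and Tfap2a was 6.43 TPM in the same library. Eomes was listed at 0 TPM in FGF4 replicate 3, where the other 7 libraries had 27.6 TPM or more. Gata3 was 122 TPM in LY+FGF4 replicate 5. Gata2 was 54.4 TPM in FGF4 replicate 8, 1.03 TPM in LY replicate 5 and 0.62 TPM in DMSO replicate 6. Tfap2a was 9.16 TPM in LY replicate 5. Id2 was 2.74 TPM in FGF4 replicate 1 and 1.86 TPM in LY replicate 6. Krt19 was 12.5 TPM in LY+FGF4 replicate 3 and 12.9 TPM in LY replicate 8.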

How the results depend on the processing

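Over 48 member results and 1269 refits, 50 changed sign, and none of those was a call. The replicate numbers did not pair the libraries (31 same-numbered pairs, r from -0.0824 to 0.0680). With the replicate block, the genes called were 41 (294 without) for FGF4 against DMSO, 5 (45) for LY against DMSO, 460 (1143) for LY+FGF4 against DMSO, 224 (427) for LY+FGF4 against FGF4 and 2 (6) for the interaction. Under it 0 members were called in LY+FGF4 against DMSO (Tfap2c adjusted p = 0.0677), and Tfap2c stayed called in LY+FGF4 against LY (0.013). In the order FGF4, LY and LY+FGF4 against DMSO, LY+FGF4 against FGF4 and LY+FGF4 against LY, a gene-number covariate gave 181, 19, 75, 187 and 108 genes. Leaving out the 6 libraries under 9000 genes takes away 4 of 6 LY+FGF4 libraries (2, 3, 5 and 8, so both with Cdx2 and Gata3 at 1 TPM or more) and 2 of 8 FGF4 libraries. Without them the counts were 470, 134, 614 and 171 for the first 4 and 27 for the interaction. Library weights gave 1074 and 496 for the first 2, and 111 and 356 for the last 2. No trend gave 187 and 28 for the first 2, and fitting only the groups compared gave 179, 741, 80 and 400 from LY against DMSO on. Leaving out 1 library gave 112 to 431, 16 to 50, 672 to 1285, 282 to 589 and, for the interaction, 2 to 11 genes. The lowest counts came without DMSO replicate 7 (112, FGF4 against DMSO), 9 (16, LY against DMSO) and 6 (672, LY+FGF4 against DMSO) and FGF4 replicate 7 (282, LY+FGF4 against FGF4). Members called in FGF4 against DMSO were 3 with weights and 1 with a pseudocount of 10, only those groups or without the low libraries. In LY against DMSO they were 1 with weights or only those groups. For LY+FGF4 against DMSO they were 2 with a pseudocount of 0.1 or weights, 3 without the low libraries, 0 with the covariate or only those groups, and 1 to 2 with 1 library left out. For LY+FGF4 against LY they were 2 with a pseudocount of 10, quantile normalization or without the low libraries, and 1 to 2 with 1 library left out. Quantile normalization moved the median log2 fold change of all genes in LY+FGF4 against DMSO to -0.03 from -0.37, with 459 genes higher and 652 lower, against 264 and 879 as reported. It gave 128 and 190 against 87 and 340 for LY+FGF4 against FGF4, and 271 and 409 against 216 and 542 for LY+FGF4 against LY.

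Sign changes were as follows (log2). Gata3 with a pseudocount of 0.1 gave -0.39 in FGF4 against DMSO, -0.70 in LY+FGF4 against DMSO and -0.31 in LY+FGF4 against FGF4, and with weights -0.49 in the last. Without the low libraries Gata3 gave -1.52 against DMSO, -2.37 against FGF4 and -0.42 against LY in LY+FGF4, and -1.27 in the interaction, where Cdx2 gave -0.32. With the covariate Krt8 gave 0.033 in FGF4 against DMSO, and Krt18 0.35 in LY against DMSO, 0.21 and 0.59 in LY+FGF4 against DMSO and FGF4, and 0.24 in the interaction. Cdx2 in LY+FGF4 against LY gave 0.27 with a pseudocount of 10. Krt19 in LY+FGF4 against DMSO gave 0.086 with quantile normalization and 0.16 with the covariate. Against LY it gave 0.023 with a pseudocount of 10, 0.33 with quantile normalization, 0.17 with weights, 0.58 with the covariate and 0.10 without the low libraries. With 1 library left out, Gata3 ranged from -0.35 to 0.44 in FGF4 against DMSO, from -0.71 to 0.67 in LY+FGF4 against DMSO and from -0.86 to 0.53 in LY+FGF4 against FGF4. Krt18 ranged from -0.95 to 0.34 in the interaction, Krt19 from -0.56 to 0.46 in LY+FGF4 against LY, and Krt8 from -0.075 to 0.21 in LY against DMSO. Tfap2a ranged from -0.63 to 0.025 in FGF4 against DMSO and from -0.017 to 0.66 in LY against DMSO. The cause of these changes was not tested. TPM keeps no read number, so a value listed at 0 has no detection limit here.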
